A study of Mus musculus with 24 samples.

Results

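The lysosome is the acidic compartment in which macrophages digest what they engulf, and IL4 is the cytokine that drives their alternative activation. Its limiting membrane carries the LAMP glycoproteins, lipid transporters and the calcium-permeable mucolipin channels, the V-ATPase pumps protons inward, and soluble hydrolases with their activator proteins degrade sugars, lipids and proteins. Many of these genes share a short promoter element, the CLEAR box, that is bound by the MiT/TFE transcription factors TFEB, TFE3 and MITF. Cathepsins, the proteases of the lysosome, were not among the genes chosen here.

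The genes were 33, taken by symbol from the 23309 gene models in each of the deposited expression tables, and all 33 were found in both. They comprised 6 lysosomal membrane proteins, 12 hydrolases, 4 lipid transfer and activator proteins, 3 mucolipin channels, the 3 MiT/TFE factors and 5 V-ATPase subunits or accessory proteins. The series holds 24 samples, of which 20 were RNA-seq libraries used here, and 4 libraries of 5-hydroxymethylcytosine were not analysed here. Of the RNA libraries, 12, hereafter BMDM, were macrophages grown from C57BL/6 bone marrow for 7 days and either wild type or Tet2 knockout. IL4 was given at 20 ng/ml, and cells were taken untreated (0 h) or after 10 or 24 h of it, with 2 biological replicates in each of the 6 groups. The other 8 libraries, hereafter TAM, were CD11b+F4/80+ cells sorted from YUMM1.7 melanomas that had grown for 4 weeks under the skin of male C57BL/6J mice aged 6 to 8 weeks. All TAM donors were Tet2 fl/fl. The 4 wild-type libraries came from LysMcre wt/wt mice and the 4 knockout libraries from LysMcre +/wt mice, in which Cre was driven by the LysM gene of the myeloid lineage. BMDM RNA was depleted of ribosomal RNA and TAM RNA was selected for polyA, so levels of the 2 tables are only set side by side.

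Values were FPKM, which scales the fragments of a gene by transcript length and by the mapped fragments of the library. The FPKM of a library summed to 365118 to 557183 in BMDM and to 337994 to 464812 in TAM. The 33 genes took 1.87 to 2.48% of that sum in BMDM and 0.811 to 1.31% in TAM. The tables give no read totals, so the depth is unknown. Tet2 did not separate the genotypes in 1 direction. At 0 h it stood at 4.11 and 5.91 FPKM in wild type and 4.02 and 4.48 in the libraries labelled knockout. At 10 h it stood at 8.74 and 8.81 against 7.22 and 8.19, and at 24 h at 9.38 and 9.82 against 11.3 and 10.3. In TAM the groups overlapped, with 7.75 to 16.1 FPKM in wild type and 14.4 to 19.0 in knockout (log2 difference 0.36, limma's adjusted p = 0.418). A value over the whole gene can hold exons outside a deletion, so it does not check the label, and the libraries are called by their labels throughout. The macrophage markers were present in every library, with 10 of 10 at 1 FPKM or more in every group. Fibroblast markers summed to 4.55 to 4.92 FPKM in wild-type BMDM at 0 h and to 21.1 to 23.0 in the libraries labelled knockout, and they were higher in knockout at 10 and 24 h too (19.6 to 20.4 against 4.33 to 5.00, and 9.30 to 9.48 against 2.48 to 2.55). In each 0 h group 0 of the 8 fibroblast markers were at 0. The macrophage sum at 24 h was 10626 to 10644 FPKM in knockout and 13312 to 16592 in wild type. Its largest part was Lyz2, with 6054 and 6136 FPKM in knockout and 8525 and 9889 in wild type. Averaged over the times, 3 of the 10 macrophage markers were called lower in knockout, Itgam (-0.40), Fcgr1 (-0.56) and C1qa (-0.79), with limma's adjusted p of 0.00165, 0.00161 and 0.00106, and 0 were called higher. Of all genes tested, 2.88% were called lower in that comparison and 7.06% higher. The part of these markers in the genotype differences below was not tested.

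In 250-base windows ahead of RefSeq transcription starts (build GRCm38.p6), 30 of the 33 genes were represented, by 36 starts. The core letters CACGTG were in 7 of the 36 windows (19.4%), each of another gene, and in 6.02% of all 32851 windows. The longer TCACGTG, read on either strand, was in 6 windows (16.7%) against 3.13% of all windows. The full palindrome TCACGTGA was in 3 windows (8.33%), those of Mcoln1, Gla and Atp6v1a, against 0.785% of all windows. Each longer word contains the shorter ones, so the 3 counts overlap. The 3 windows with the palindrome and that of Lamp1, which had TCACGTG on either strand at the most separate places (4), are given below. They belong to members of 4 roles. Mcoln1 was named by a rule, and the other 3 were chosen after their values were seen. Capitals mark the longest of the 3 words found in each window, at 46 bases before the start in Mcoln1, 228 and 195 in Gla, 132 in Atp6v1a, and 62, 45, 28 and 16 in Lamp1.
Mcoln1 (chr8:3500269-3500518, plus strand): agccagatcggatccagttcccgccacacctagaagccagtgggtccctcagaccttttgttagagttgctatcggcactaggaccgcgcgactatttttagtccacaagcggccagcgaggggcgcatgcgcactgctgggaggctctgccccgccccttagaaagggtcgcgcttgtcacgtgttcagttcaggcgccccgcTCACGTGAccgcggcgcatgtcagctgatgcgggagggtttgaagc
Gla (chrX:134601006-134601255, minus strand): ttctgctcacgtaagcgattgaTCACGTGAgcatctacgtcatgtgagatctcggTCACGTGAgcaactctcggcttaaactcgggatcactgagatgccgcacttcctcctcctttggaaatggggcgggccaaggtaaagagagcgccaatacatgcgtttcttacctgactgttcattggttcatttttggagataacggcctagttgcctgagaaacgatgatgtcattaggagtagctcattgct
Atp6v1a (chr16:44139260-44139509, minus strand): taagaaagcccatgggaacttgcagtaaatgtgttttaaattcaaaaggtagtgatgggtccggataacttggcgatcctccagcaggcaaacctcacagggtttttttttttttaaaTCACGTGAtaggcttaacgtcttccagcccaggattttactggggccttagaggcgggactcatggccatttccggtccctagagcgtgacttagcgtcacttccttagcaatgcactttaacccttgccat
Lamp1 (chr8:13158911-13159160, plus strand): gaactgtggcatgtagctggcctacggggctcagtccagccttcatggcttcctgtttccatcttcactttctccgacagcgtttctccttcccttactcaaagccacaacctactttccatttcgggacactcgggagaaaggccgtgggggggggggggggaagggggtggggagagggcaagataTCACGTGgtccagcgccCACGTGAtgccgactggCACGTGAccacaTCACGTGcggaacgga

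At 24 h of IL4 in wild type, Mcoln1 was lower (-0.41 on the log2 scale), Lamp1 was higher (0.43, although quantile normalization turned it to -0.20), and Gla (-0.24) and Atp6v1a (-0.12) did not pass the test. The 3 genes with the palindrome all lay below 0, though only Mcoln1 passed. Among those with the shorter TCACGTG and no palindrome, Lamp1 and Glb1 (0.46) were higher and Gaa (-0.42) did not pass. No link between the letters and the direction was tested. A match of letters is a description of the window and not a binding site. In the windows of Tfeb, Tfe3, Mitf and Mcoln3 none of the 3 words was found.

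IL4 moved the lysosomal genes in both directions. In wild-type BMDM, 6 of the 33 rose and 4 fell at 10 h, where 28.2% of all 10510 genes tested rose and 14.2% fell. At 24 h 11 rose and 10 fell, against 29.7% and 20.3% of all genes. The shares of the 33 (18.2% and 12.1% at 10 h, 33.3% and 30.3% at 24 h) were read against these backgrounds, and no excess over all genes was tested. In the libraries labelled knockout 5 rose and 4 fell at 10 h (24.2% and 14.6% of all genes), and 7 rose and 10 fell at 24 h (26.5% and 17.1%). From 10 to 24 h, 2 rose and 5 fell in wild type (11.6% and 14.3% of all genes) and 3 rose and 5 fell in knockout (12.1% and 10.9%). The median difference of the 33 at 24 h was -0.12 on the log2 scale in wild type and -0.15 in knockout, beside 0.06 and 0.07 for all genes. The wild-type median rested on single libraries: it was 0.03 without 0 h replicate 1, -0.30 without 0 h replicate 2, -0.04 without 24 h replicate 1 and -0.24 without 24 h replicate 2. Between the genotypes, which share no library in these comparisons, 7 genes rose in both at 24 h, 8 fell in both and 0 were called in opposite directions, where 20.7%, 12.5% and 0.143% of all genes did so. A gene counted as risen or fallen where limma's adjusted p, corrected over all genes tested, was under 0.05. In a bulk culture, fewer cells of a kind and less RNA per cell cannot be told apart.

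The split of these calls depended on the scaling of the libraries. The shares of all genes called under the other scalings and fits are not given, here or below. Counts under them are thus not read against a background. Quantile normalization, which gives every library the same distribution, turned the 10 h calls in wild type from 6 higher and 4 lower into 5 and 21, and the 24 h calls from 11 and 10 into 5 and 25. In knockout it gave 5 and 16 at 10 h and 4 and 19 at 24 h. Median-of-ratios scaling gave 6 and 11 at 10 h in wild type and 5 and 12 in knockout, and 11 and 15 at 24 h in wild type. From 10 to 24 h in wild type it gave 6 and 5 in place of 2 and 5. Quantile normalization moved the median of all genes by -0.11 at 10 h in wild type and by between -0.09 and 0.04 in the other BMDM comparisons, and the median of the 33 at 24 h in wild type became -0.57. A fit of only the 4 libraries compared called 5 of the 33 at 24 h in wild type, in place of 21, and 22 at 10 h in knockout, in place of 9. Of the 78 calls over all comparisons 33 kept direction and threshold under every alternative run, 73 kept direction, and 5 were reversed, all by quantile normalization in wild type. That scaling also moved 13 calls that were kept by over 1.5 times, 10 of them to a larger size and 3 to a smaller.

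**Figure D1:**
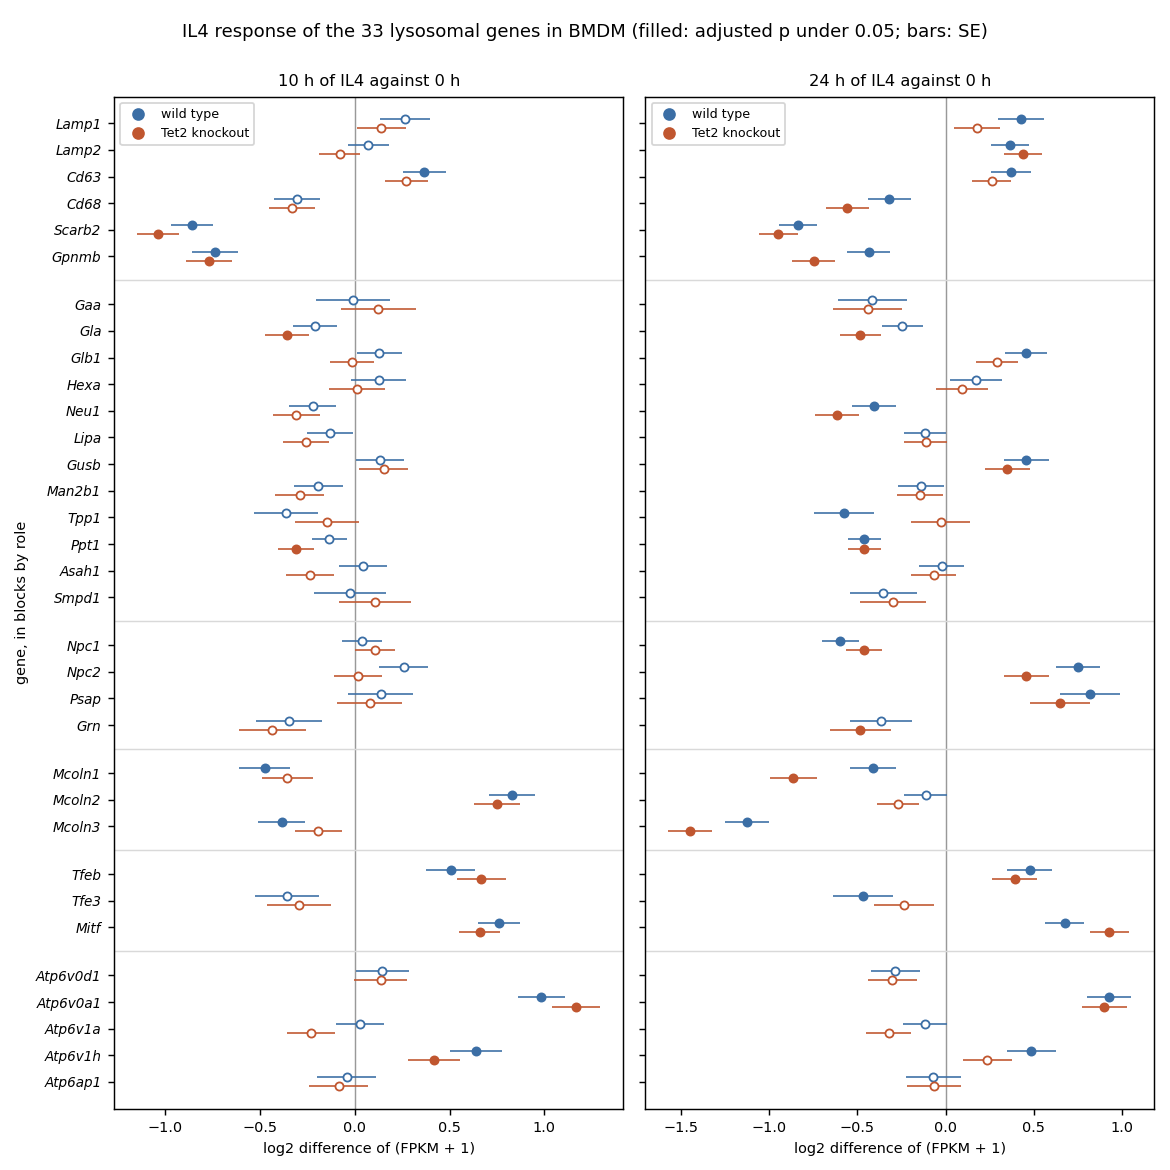
Log2 difference of (FPKM + 1) of each gene after 10 h (left) and 24 h (right) of IL4 against 0 h, in blocks by role as named in the text from membrane proteins at the top to V-ATPase subunits at the bottom. Points are limma estimates from 2 libraries a group with their SE, filled where the adjusted p was under 0.05; Atp6v0a1 and Mitf lie right of 0 and Scarb2 left of 0 at both times in both genotypes, while the filled points of Lamp1, Lamp2, Cd63 and Gusb at 24 h and of Cd63 at 10 h in wild type lay left of 0 under quantile normalization.

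Among the membrane proteins, Scarb2 and Gpnmb fell at both times in both genotypes. Scarb2 encodes LIMP-2, the receptor that carries glucocerebrosidase to lysosomes. It stood at 115 and 95.1 FPKM in the wild-type libraries at 0 h, 59.4 and 55.0 at 10 h and 55.4 and 60.8 at 24 h. For Scarb2 the knockout libraries gave 103 and 101 FPKM at 0 h, 49.3 and 49.3 at 10 h and 54.2 and 50.9 at 24 h. Every IL4 library was below every untreated one, with log2 differences of -0.86 and -0.84 in wild type and -1.04 and -0.95 in knockout (SE 0.11, largest adjusted p = 0.000151). Gpnmb, a glycoprotein of late endosomes that macrophages make in quantity, was the more abundant. It had 795 and 678 FPKM in the wild-type libraries at 0 h, 447 and 434 at 10 h and 507 and 582 at 24 h. Knockout Gpnmb values were 676 and 682 FPKM untreated, 394 and 403 after 10 h and 394 and 414 after 24 h. Its groups at 0 and 10 h did not overlap, and it fell by 0.74 at 10 h in wild type and by 0.77 in knockout. At 24 h the wild-type value was -0.43 ± 0.12 (SE, adjusted p = 0.0130) and the knockout value -0.75 ± 0.12 (SE, adjusted p = 0.000626). Without wild-type 24 h replicate 1 the former was -0.34, adjusted p = 0.0670.

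The LAMP proteins and the tetraspanin Cd63, the bulk of the lysosomal membrane, went the other way by smaller amounts. Lamp2 had 185 and 164 FPKM in the wild-type libraries at 0 h, 183 and 183 at 10 h and 233 and 217 at 24 h. Lamp2 in knockout stood at 172 and 176 FPKM, then 158 and 171, then 225 and 247 at the same times. It rose at 24 h by 0.37 in wild type and 0.44 in knockout. Lamp1 rose at 24 h in wild type by 0.43 and Cd63 by 0.37, and Cd63 by 0.37 at 10 h. In the wild-type comparisons quantile normalization turned Lamp1 to -0.20, Lamp2 to -0.25 and Cd63 to -0.22 at 24 h and Cd63 to -0.052 at 10 h, and in knockout it left Lamp2 at 0.04 (adjusted p = 0.730), so these directions hold only for the values as deposited and for median-of-ratios scaling. Leaving out wild-type 0 h replicate 2, the library with the lowest FPKM sum, gave Lamp1 0.28, adjusted p = 0.0642, Lamp2 0.28, adjusted p = 0.0577, and Cd63 0.28, adjusted p = 0.0653 at 24 h and 0.28, adjusted p = 0.0780 at 10 h. The Lamp1 call was also lost without wild-type 24 h replicate 2 (adjusted p = 0.0705), those of Lamp2 and Cd63 without replicate 1 of that group (0.0618 and 0.0520), and that of Cd63 at 10 h without either 10 h replicate (0.153 and 0.0772). In knockout the Lamp2 call at 24 h was lost without 0 h replicate 1 (0.0562) and without 24 h replicate 2 (0.0625). Cd68, a LAMP family member of macrophages, fell at 24 h by 0.56 in knockout. Its wild-type value at 24 h was -0.32 ± 0.12 (SE, adjusted p = 0.0495), and without 24 h replicate 1 it was -0.16, adjusted p = 0.280; that call was lost without either 0 h replicate too (adjusted p = 0.0706 and 0.0946).

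Of the 12 hydrolases, 0 passed the test at 10 h in wild type and 2 fell in knockout, and at 24 h 2 rose and 3 fell in wild type and 1 rose and 3 fell in knockout. Of all genes, 28.2% rose and 14.2% fell at 10 h in wild type, and 24.2% and 14.6% in knockout. At 24 h the shares were 29.7% and 20.3% in wild type and 26.5% and 17.1% in knockout. Ppt1, which removes palmitate from proteins, fell at 24 h in both genotypes. It had 44.6 and 39.5 FPKM in the wild-type libraries at 0 h, 38.8 and 37.6 at 10 h and 31.4 and 29.1 at 24 h. For Ppt1 the knockout libraries gave 42.2 and 41.8 FPKM at 0 h, 32.5 and 35.0 at 10 h and 30.4 and 30.0 at 24 h. Its 24 h libraries were below all 0 h libraries, by -0.46 ± 0.09 (SE, adjusted p = 0.00227) in wild type and -0.46 ± 0.09 (SE, adjusted p = 0.00246) in knockout. The 10 h fall in knockout (-0.31 ± 0.09 (SE, adjusted p = 0.0234)) lost its call without any 1 of the 4 libraries compared (adjusted p = 0.0541 to 0.154). Neu1, a sialidase, fell at 24 h by 0.62 in knockout and by 0.41 in wild type, the latter with -0.27, adjusted p = 0.110 without 0 h replicate 1 and -0.25, adjusted p = 0.125 without 24 h replicate 1.

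Tpp1, a tripeptidyl peptidase, had its call in 1 genotype. It stood at 26.3 and 38.1 FPKM in the wild-type libraries at 0 h, 25.2 and 23.6 at 10 h and 18.3 and 24.0 at 24 h. Knockout Tpp1 values were 23.5 and 27.1 FPKM untreated, 22.5 and 22.9 after 10 h and 25.0 and 24.5 after 24 h. The wild-type fall at 24 h, -0.58 ± 0.17 (SE, adjusted p = 0.0161), was lost without the high 0 h replicate 2 or the low 24 h replicate 1: it was -0.32, adjusted p = 0.129 without the first and -0.39, adjusted p = 0.110 without the second. The genotypes' 24 h responses of Tpp1 differed by 0.55 ± 0.24 (SE, adjusted p = 0.260), which did not pass. Gla, alpha-galactosidase A, passed in knockout. It had 56.5 and 43.8 FPKM in the wild-type libraries at 0 h, 44.0 and 42.0 at 10 h and 41.9 and 41.9 at 24 h. Gla in knockout stood at 66.3 and 63.5 FPKM, then 49.6 and 51.2, then 44.7 and 47.5 at the same times. In the libraries labelled knockout it fell by 0.36 at 10 h and by 0.48 at 24 h. The 10 h call was lost without any 1 of its 4 libraries (adjusted p = 0.0962 to 0.154), and the 24 h call became -0.45, adjusted p = 0.0503 without 0 h replicate 1. In wild type the values were -0.21 and -0.24, and the differences between the genotypes' responses were -0.15 and -0.24 (adjusted p = 0.994 and 0.468).

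Glb1 (beta-galactosidase) rose by 0.46 in wild type at 24 h and Gusb (beta-glucuronidase) by 0.46 in wild type and 0.35 in knockout, although quantile normalization put Gusb at -0.042 and 0.03. Glb1 was 0.30 without wild-type 24 h replicate 2 and 0.19 under quantile normalization. Without wild-type 0 h replicate 2, Glb1 was 0.35, adjusted p = 0.0500 and Gusb 0.35, adjusted p = 0.0698, and Gusb was 0.28, adjusted p = 0.0777 without wild-type 24 h replicate 2. The knockout call of Gusb was lost without any 1 of its 4 libraries (adjusted p = 0.0921 to 0.195). Hexa, Lipa, Gaa, Man2b1, Asah1 and Smpd1, which cut gangliosides, cholesteryl esters, glycogen, mannose chains, ceramide and sphingomyelin, passed in none of the IL4 comparisons. Their log2 differences from 0 h spanned -0.44 to 0.17.

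The lipid transfer and activator proteins separated at 24 h. Psap encodes prosaposin, the precursor of the saposins that present sphingolipids to hydrolases, and was the most abundant of the 33 transcripts. It had 3976 and 3297 FPKM in the wild-type libraries at 0 h, 4032 and 3931 at 10 h and 5638 and 7267 at 24 h. For Psap the knockout libraries gave 3565 and 3845 FPKM at 0 h, 3965 and 3854 at 10 h and 5714 and 5898 at 24 h. All 24 h libraries were above all others, by 0.82 ± 0.17 (SE, adjusted p = 0.00261) in wild type and 0.65 ± 0.17 (SE, adjusted p = 0.0106) in knockout. Without the low-value filter the adjusted p was 0.0839 and 0.175, and the knockout value was 0.59, adjusted p = 0.0839 without 0 h replicate 1. Npc2, the soluble cholesterol carrier of the lysosome, rose with it. It had 183 and 147 FPKM in the wild-type libraries at 0 h, 197 and 194 at 10 h and 261 and 292 at 24 h. Knockout Npc2 values were 186 and 170.1 FPKM untreated, 178 and 182 after 10 h and 232 and 257 after 24 h. Its 24 h libraries were also above all others. The differences from 0 h were 0.75 ± 0.13 (SE, adjusted p = 0.000758) in wild type and 0.46 ± 0.13 (SE, adjusted p = 0.0142) in knockout, and quantile normalization reduced them to 0.13 (adjusted p = 0.102) and 0.06 (0.431). The knockout call was lost without 0 h replicate 2 (adjusted p = 0.109) and without 24 h replicate 2 (0.101).

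Npc1, the membrane cholesterol transporter that receives its load from Npc2, fell instead. It had 68.3 and 63.7 FPKM in the wild-type libraries at 0 h, 66.0 and 69.6 at 10 h and 39.4 and 47.6 at 24 h. Npc1 in knockout stood at 66.7 and 68.0 FPKM, then 73.3 and 71.8, then 48.3 and 48.9 at the same times. The 0 and 10 h libraries overlapped and all 24 h libraries were below them. The differences from 10 h to 24 h were -0.63 ± 0.10 (SE, adjusted p = 0.00175) in wild type and -0.57 ± 0.10 (SE, adjusted p = 0.00300) in knockout, and they kept their calls under every alternative. Grn, progranulin, stood between 234 and 395 FPKM over the 12 libraries. It passed at 24 h in knockout (-0.48 ± 0.18 (SE, adjusted p = 0.0464)), a call lost without any 1 of its 4 libraries (adjusted p = 0.117 to 0.162).

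The mucolipin channels, which release calcium and other cations from the lysosome, had 3 different time courses. Mcoln2 rose and returned. It had 30.6 and 23.4 FPKM in the wild-type libraries at 0 h, 47.9 and 48.6 at 10 h and 24.2 and 25.1 at 24 h. For Mcoln2 the knockout libraries gave 36.5 and 35.1 FPKM at 0 h, 63.5 and 58.3 at 10 h and 30.7 and 28.3 at 24 h. All 10 h libraries were above all others. The rise at 10 h was 0.83 ± 0.12 (SE, adjusted p = 0.000370) in wild type and 0.75 ± 0.12 (SE, adjusted p = 0.000725) in knockout, and the drop from 10 to 24 h was -0.94 ± 0.12 (SE, adjusted p = 0.000440) and -1.02 ± 0.12 (SE, adjusted p = 0.000221). These 4 calls were kept under every alternative.

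Mcoln3 fell through the course. It had 3.74 and 3.44 FPKM in the wild-type libraries at 0 h, 2.82 and 2.23 at 10 h and 0.863 and 1.37 at 24 h. Knockout Mcoln3 values were 10.8 and 10.5 FPKM untreated, 9.29 and 9.13 after 10 h and 3.39 and 3.16 after 24 h. At 24 h the mean was 0.311 of the 0 h mean in wild type and 0.307 in knockout (log2 differences -1.13 ± 0.12 (SE, adjusted p = 3.99e-05) and -1.45 ± 0.12 (SE, adjusted p = 6.91e-06)). The 10 h value was -0.38 ± 0.12 (SE, adjusted p = 0.0289) in wild type, lost without 10 h replicate 2 (-0.26, adjusted p = 0.212) and without either 0 h replicate (adjusted p = 0.0987 and 0.0596), and -0.19 ± 0.12 (SE, adjusted p = 0.252) in knockout, which did not pass. Mcoln1, the channel found in most cell types, had 19.1 and 17.5 FPKM in wild type at 0 h, 12.9 and 12.8 at 10 h and 11.6 and 15.7 at 24 h. Mcoln1 in knockout stood at 20.5 and 20.0 FPKM, then 15.7 and 15.5, then 11.8 and 9.68 at the same times. In knockout it fell by 0.86 at 24 h (adjusted p = 0.000424) under every alternative. The wild-type falls of 0.47 at 10 h and 0.41 at 24 h were lost without 0 h replicate 1 (-0.42, adjusted p = 0.0618 at 10 h and -0.35, adjusted p = 0.0969 at 24 h). The first was also lost without either 10 h replicate (adjusted p = 0.0704 and 0.0711) and the second without 24 h replicate 1 (-0.21, adjusted p = 0.168). The genotypes' 24 h responses of Mcoln1 differed by -0.45 ± 0.19 (SE, adjusted p = 0.243), short of the threshold.

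**Figure D2:**
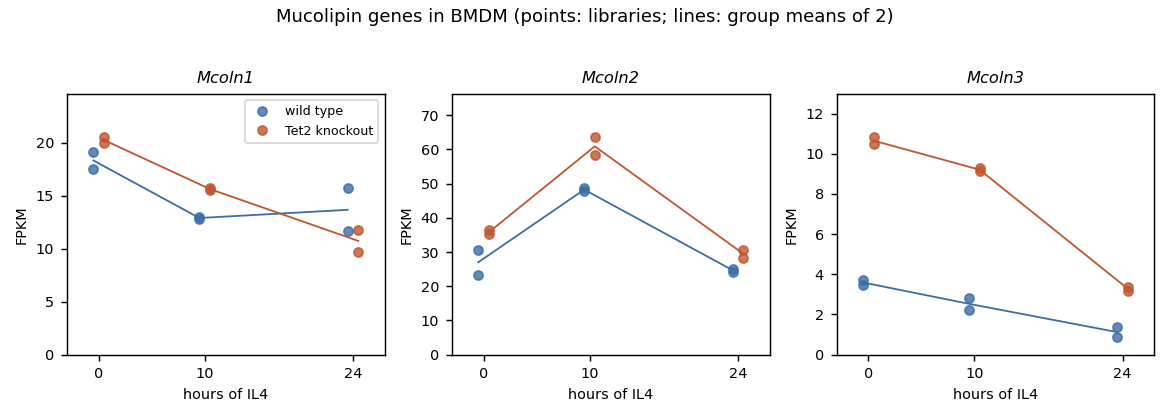
FPKM of the mucolipin genes against hours of IL4 in BMDM, with each library as a point, wild type in blue, knockout in orange, and lines through the means of 2 libraries. Mcoln2 peaks at 10 h in both genotypes, and for Mcoln3 the libraries labelled knockout lie above those of wild type at each time.

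Of the MiT/TFE factors, Mitf and Tfeb rose and Tfe3 did not. Mitf had 14.7 and 16.3 FPKM in the wild-type libraries at 0 h, 26.9 and 26.9 at 10 h and 25.1 and 25.6 at 24 h. For Mitf the knockout libraries gave 15.3 and 14.9 FPKM at 0 h, 21.7 and 27.4 at 10 h and 29.0 and 30.2 at 24 h. All IL4 libraries were above all untreated ones. Its rises of 0.76 and 0.68 in wild type and 0.66 and 0.93 in knockout (SE 0.11, largest adjusted p = 0.000940) were kept under every alternative. Tfeb had 19.4 and 16.1 FPKM in the wild-type libraries at 0 h, 26.0 and 25.1 at 10 h and 21.9 and 28.5 at 24 h. Knockout Tfeb values were 14.7 and 14.3 FPKM untreated, 24.7 and 22.6 after 10 h and 18.9 and 19.9 after 24 h. It rose at 10 h by 0.51 ± 0.13 (SE, adjusted p = 0.00953) in wild type and by 0.67 ± 0.13 (SE, adjusted p = 0.00219) in knockout, the second kept under every alternative. The first was 0.38, adjusted p = 0.0670 without 0 h replicate 2 and 0.48, adjusted p = 0.0630 without 10 h replicate 1. At 24 h the values were 0.48 (lost without 0 h replicate 2, adjusted p = 0.0746, and without 24 h replicate 2, 0.0665) and 0.39 (lost without any 1 of its 4 libraries, 0.0741 to 0.140). Tfe3, the lowest of the 3, had 10.5 and 13.1 FPKM in wild type at 0 h, 8.39 and 9.54 at 10 h and 6.54 and 10.3 at 24 h. Tfe3 in knockout stood at 10.3 and 10.7 FPKM, then 7.88 and 8.87, then 8.91 and 8.60 at the same times. Its 24 h fall in wild type, -0.47 ± 0.17 (SE, adjusted p = 0.0406), became -0.18, adjusted p = 0.302 without 24 h replicate 1 and -0.32, adjusted p = 0.236 without 0 h replicate 2, and was -0.76 without 24 h replicate 2. Activity of these factors is set largely by their entry into the nucleus, which RNA does not measure.

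Of the V-ATPase subunits, Atp6v0a1 and Atp6v1h rose and Atp6v0d1, Atp6v1a and Atp6ap1 passed in no comparison with 0 h. Atp6v0a1 encodes an isoform of the membrane a subunit. It had 27.4 and 32.1 FPKM in the wild-type libraries at 0 h, 60.3 and 59.0 at 10 h and 51.7 and 63.5 at 24 h. For Atp6v0a1 the knockout libraries gave 26.9 and 31.8 FPKM at 0 h, 65.2 and 68.9 at 10 h and 55.5 and 55.6 at 24 h. All IL4 libraries were above all untreated ones, by 2.01-fold at 10 h in wild type and 2.28-fold in knockout (log2 0.98 ± 0.13 (SE, adjusted p = 0.000154) and 1.17 ± 0.13 (SE, adjusted p = 5.01e-05)). At 24 h the folds were 1.94 and 1.89, and all 4 calls were kept under every alternative. Atp6v1h, a subunit of the cytosolic V1 sector, rose by 0.64 ± 0.14 (SE, adjusted p = 0.00402) at 10 h in wild type and 0.42 ± 0.14 (SE, adjusted p = 0.0341) in knockout. It had 55.5 and 39.7 FPKM in the wild-type libraries at 0 h, 75.6 and 71.8 at 10 h and 69.7 and 62.9 at 24 h. Knockout Atp6v1h values were 61.4 and 60.6 FPKM untreated, 80.4 and 83.4 after 10 h and 71.8 and 72.3 after 24 h. The wild-type rise at 10 h was 0.40 without 0 h replicate 2. Under quantile normalization the values at 10 h were 0.29 (adjusted p = 0.0634) and 0.15 (0.310). The knockout call was lost without any 1 of its 4 libraries (adjusted p = 0.104 to 0.141), and the wild-type rise at 24 h of 0.49 became 0.25, adjusted p = 0.0593 without 0 h replicate 2 and 0.41, adjusted p = 0.0660 without 24 h replicate 1. Atp6v0d1, the ubiquitous d subunit, fell from 10 to 24 h by 0.43 in wild type and 0.44 in knockout. It had 78.0 and 79.7 FPKM at 10 h and 50.8 and 66.8 at 24 h in wild type, and 91.5 and 86.7 and 63.8 and 67.0 in knockout. Both calls were lost without the low-value filter (adjusted p = 0.0839 and 0.0780), the knockout call without any 1 of its 4 libraries (0.118 to 0.208), and the wild-type call without either 10 h replicate (0.148 and 0.187) or 24 h replicate 1 (-0.24, adjusted p = 0.226).

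**Figure D3:**
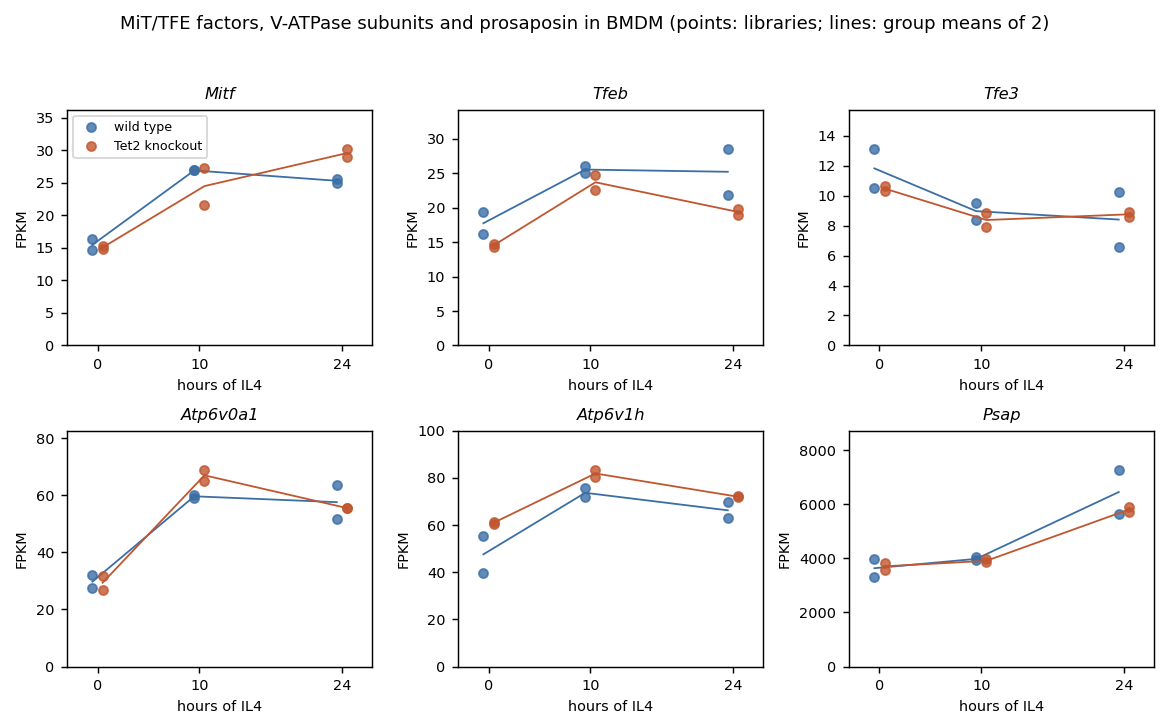
FPKM of the MiT/TFE factors, Atp6v0a1, Atp6v1h and Psap against hours of IL4 in BMDM, with each library as a point, wild type in blue, knockout in orange, and lines through the means of 2. Mitf and Atp6v0a1 are above their 0 h values in every IL4 library, and Psap reaches 5638 to 7267 FPKM at 24 h only after 3297 to 4032 at the earlier times.

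Other genes of the pathway, taken from lists, were counted beside the 33. Their counts at 24 h stand against the 29.7% of all genes that rose and 20.3% that fell in wild type, and 26.5% and 17.1% in knockout. Of 13 other V-ATPase subunits tested, 6 rose and 0 fell at 24 h in wild type, and 5 rose and 2 fell in knockout. Quantile normalization turned this balance, to 3 higher and 6 lower in each genotype. The largest rise was that of Atp6v0d2, the d subunit isoform of osteoclasts, from 17.1 to 171 FPKM in wild type (log2 difference 3.25; 3.12 in knockout), where Atp6v0d1 did not pass. The sum of 8 osteoclast markers went from 4.48 to 7.32 FPKM at 0 h in wild type to 63.6 to 83.3 at 24 h. Ocstamp, Dcstamp, Ctsk and Itgb3 made up most of it, while Nfatc1 went from 1.80 and 4.77 to 0.93 and 1.45, Mmp9 and Oscar stayed below 1 FPKM, and Calcr was at 0. Their part in the rise was not tested. Atp6v1b2 followed with 1.23 in wild type and 1.25 in knockout, and Tcirg1, the a3 subunit, fell in knockout by 0.60. Atp6v1e1 rose in wild type by 0.70, but with 0.19 (adjusted p = 0.0818) under quantile normalization.

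Of 30 other hydrolases tested, 9 rose and 6 fell at 24 h in wild type, and 8 rose and 8 fell in knockout. Quantile normalization gave 7 higher and 12 lower in wild type and 5 and 12 in knockout, and median-of-ratios scaling 10 and 9 in wild type. Acp5, the tartrate-resistant acid phosphatase, rose by 2.51 and 1.28, and Naaa, an amidase of N-acylethanolamines, by 2.32 and 2.93. Sgsh, a heparan sulfate sulfatase, was lower (-1.96 and -1.98), as was Hyal1, a hyaluronidase (-1.12 and -1.61). These outran each of the 12 hydrolases among the 33, whose largest difference at 24 h was -0.62. Of 22 other membrane proteins tested, 4 rose and 10 fell in wild type, and 4 rose and 7 fell in knockout. Quantile normalization gave 3 and 15 in wild type and 4 and 10 in knockout. The calcium channel gene Tpcn1 fell by 1.17 and 0.95 while Tpcn2 rose by 0.94 in wild type. Of 6 genes that target enzymes to lysosomes, 4 rose and 2 fell in wild type at 24 h and 2 rose and 1 fell in knockout, and under quantile normalization 3 and 2, and 1 and 1. Igf2r, the large mannose 6-phosphate receptor, fell by 0.40 at 10 h in wild type and rose by 1.05 at 24 h.

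Of 13 genes of mTORC1 and TFEB control tested, 2 rose and 5 fell at 24 h in wild type and 1 rose and 5 fell in knockout. In wild type quantile normalization gave 0 and 6 and median-of-ratios scaling 4 and 6. The folliculin complex and its GTPase partner were among the falls: Fnip2 was -2.09 in wild type and -2.27 in knockout, Flcn -1.10 and -1.39, and Rragc -1.26 and -0.97. Folliculin with its partners acts on the Rag GTPases, which take part in holding TFEB and TFE3 in the cytosol. Of 17 autophagy genes, 2 rose and 3 fell in wild type and 1 rose and 7 fell in knockout, but quantile normalization gave 1 and 10 in wild type and 0 and 10 in knockout. The kinase gene Ulk1 fell by 0.96 and 0.79 and the cargo receptor gene Sqstm1 by 0.73 and 1.09. Every pathway gene named here without a remark kept its call and its direction under both other scalings.

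Between genotypes, Mcoln3 was the member with calls at each time. It had 10.8 and 10.5 FPKM in the libraries labelled knockout at 0 h against 3.74 and 3.44 in wild type, 9.29 and 9.13 against 2.82 and 2.23 at 10 h, and 3.39 and 3.16 against 0.863 and 1.37 at 24 h. Knockout lay above wild type in every library. The mean was 2.97-, 3.65- and 2.93-fold higher, with log2 differences of 1.35 ± 0.12 (SE, adjusted p = 0.000214), 1.54 ± 0.12 (SE, adjusted p = 0.000121) and 1.02 ± 0.12 (SE, adjusted p = 0.00179). So 1 of the 33 was higher and 0 were lower at each time, where 1.89% of all genes were higher and 0.809% lower at 0 h, 1.75% and 1.09% at 10 h, and 5.29% and 2.14% at 24 h. These calls were kept under the alternatives with 2 exceptions. A fit of only the 4 libraries at 24 h gave an adjusted p of 0.0920, and the filter of 1 FPKM in every library removed Mcoln3, since wild-type 24 h replicate 1 had 0.863. The count of members called rested on single libraries at 2 times. Without wild-type 0 h replicate 1 it became 5 higher and 1 lower at 0 h, and without wild-type 24 h replicate 1 it became 1 higher and 4 lower at 24 h. Median-of-ratios scaling gave 1 higher and 2 lower at 24 h, and quantile normalization 1 and 1 at 0 h and 2 and 2 at 24 h. The shares of all genes called in these fits are not given. The median of all genes moved from 0.06 to 0.14 at 0 h without wild-type 0 h replicate 1. At 24 h it moved from 0.04 to -0.01 without wild-type 24 h replicate 1.

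Averaged over the times, 3 of the 33 were higher and 0 lower, against 7.06% and 2.88% of all genes. The 3 were Mcoln3 (1.30 ± 0.07 (SE, adjusted p = 2.35e-06)), Mcoln2 (0.33 ± 0.07 (SE, adjusted p = 0.0143)) and Gla (0.24 ± 0.07 (SE, adjusted p = 0.0448)). The Mcoln2 libraries labelled knockout were above those of wild type at each time, and its adjusted p was 0.0521 without knockout 0 h replicate 1 and 0.0501 without knockout 10 h replicate 1. Gla kept its call in none of the fits without 1 of the knockout 0 h, 10 h or 24 h or wild-type 10 h or 24 h libraries (adjusted p = 0.0567 to 0.140). The third channel, Mcoln1, stood at 0.03 ± 0.08 (SE, adjusted p = 0.876). At single times neither Mcoln2 (0.41, 0.33 and 0.25, smallest adjusted p = 0.136) nor Gla (0.38, 0.22 and 0.14) passed. Gpnmb at 24 h came nearest among the other members (-0.43 ± 0.12 (SE, adjusted p = 0.0602)). Both other scalings of the averaged comparison gave 3 higher and 3 lower.

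Mcoln3 and Mcoln2 are neighbours on chromosome 3, which also carries Tet2, whereas Mcoln1 is on chromosome 8. Their distance from Tet2 was not examined. Of the 5 tested protein-coding genes on each side of the pair in the RefSeq order, 1 of 10 passed in the same averaged comparison. It was Ssx2ip, next to Mcoln2, at -0.24 ± 0.06 (SE, adjusted p = 0.0237). Of all genes 7.06% were higher and 2.88% lower in that comparison, so 1 of 10 is near the share over all genes. The other 9 lay between -0.16 and 0.09. The window before the Mcoln3 start is shown because this gene carried the genotype difference and TET2 acts on methylated CpG sites. Capitals mark CG dinucleotides, of which it held 10, more than 62.2% of all windows, beside 20 for Mcoln2, 21 for Mcoln1 and a median of 6 over all windows. Their methylation was not analysed here.
Mcoln3 (chr3:146121541-146121790, plus strand): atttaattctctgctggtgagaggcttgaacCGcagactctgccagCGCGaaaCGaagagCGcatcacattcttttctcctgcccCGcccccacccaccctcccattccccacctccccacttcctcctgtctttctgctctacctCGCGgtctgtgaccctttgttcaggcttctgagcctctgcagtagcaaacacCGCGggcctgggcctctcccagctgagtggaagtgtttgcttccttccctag

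A direct test of whether the IL4 response differed between genotypes called 0 of the 33 at 10 h and 0 at 24 h. Over all genes 0.0571% were higher and 0.0381% lower at 10 h, and 0.0951% and 0.2% at 24 h. At an unadjusted p under 0.05 limma gave 0 members at 10 h, against 4.07% of all genes, and 2 at 24 h, against 18.2%. The 2 were Tpp1 (0.55 ± 0.24 (SE, adjusted p = 0.260)) and Mcoln1 (-0.45 ± 0.19 (SE, adjusted p = 0.243)). The median difference in response of the 33 at 24 h was -0.11, beside -0.02 for all genes. It was -0.22 beside -0.09 without wild-type 0 h replicate 1, and 0.02 beside 0.05 without replicate 2 of that group. Members that passed in 1 genotype and not in the other, such as Lamp1, Glb1 and Tfe3, are therefore not shown to differ in response.

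Other genes of the pathway that passed between genotypes are named here. Of all genes 1.89% were higher and 0.809% lower in knockout at 0 h, 1.75% and 1.09% at 10 h, and 5.29% and 2.14% at 24 h. No excess or shortfall against these shares was tested. Hgsnat, which acetylates heparan sulfate in the lysosome, was lower in knockout at the 3 times (-0.98, -1.04 and -1.10 on the log2 scale). Slc11a1, the metal transporter NRAMP1 of phagosomes, was lower too (-0.83, -1.14 and -1.14). Rragd, a Rag GTPase gene, was higher (0.58, 0.59 and 0.75). Igf2r was higher at 0 h (0.54) and 10 h (0.45). At 24 h Naaa (0.50), Gm2a (0.48) and Cd164 (0.58) were higher and Acp5 (-1.05) and Uvrag (-0.38) lower. Of the 13 other V-ATPase subunits 0 passed at any time by limma on the deposited scale, whereas at 24 h median-of-ratios scaling called 2 lower and quantile normalization 1 higher.

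**Figure D4:**
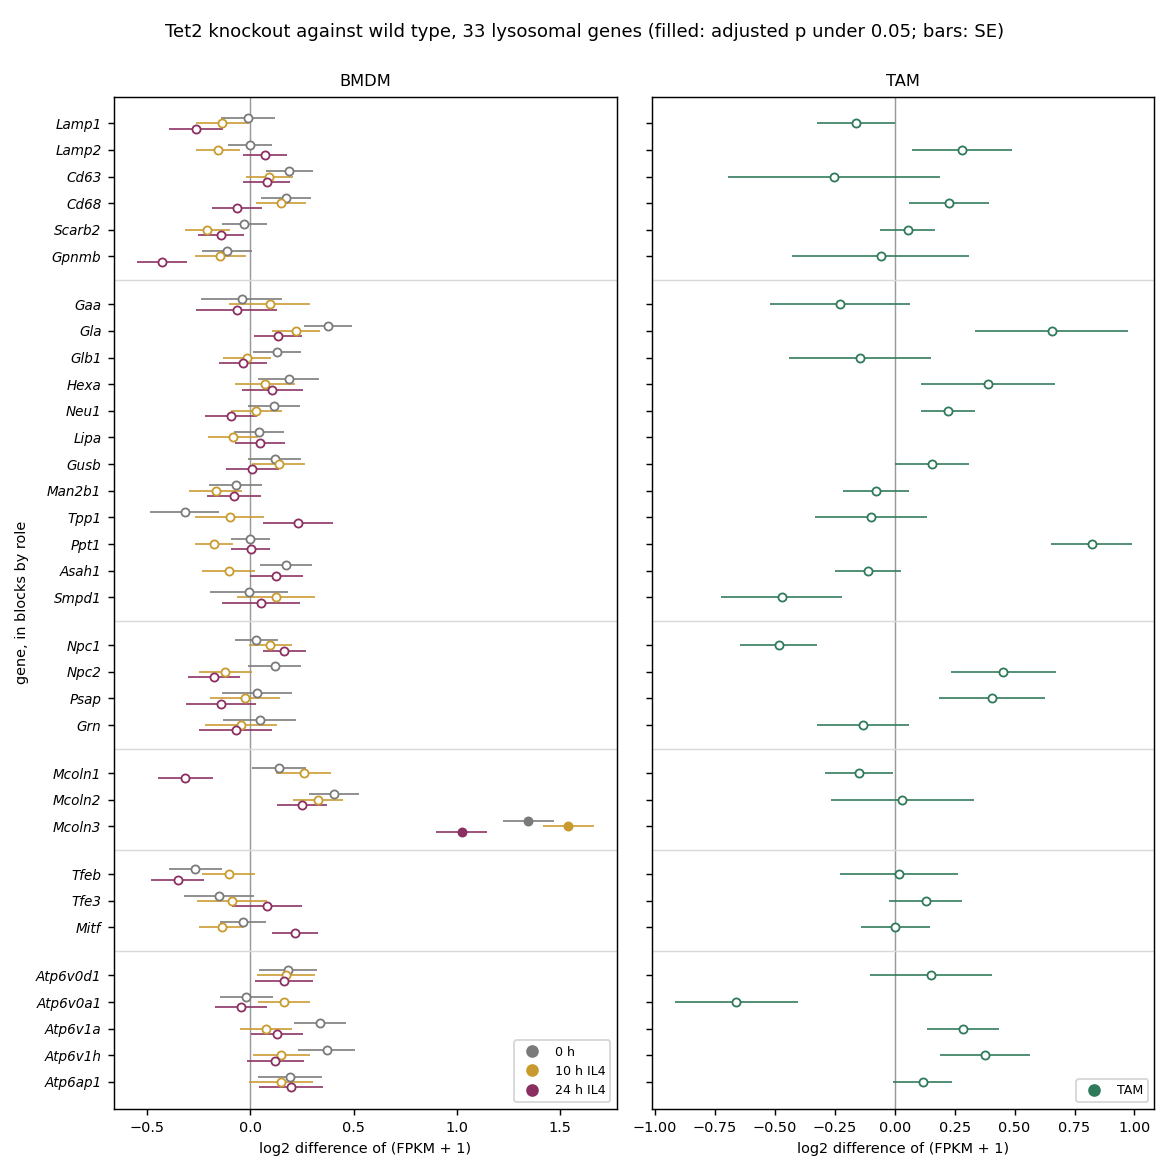
Log2 difference of (FPKM + 1) between the libraries labelled Tet2 knockout and wild type for each gene, in BMDM at 3 times of IL4 (left, 2 libraries a group) and in TAM (right, 4 a group), with SE and filled points where the adjusted p was under 0.05. Mcoln3 has the filled points, at 1.35, 1.54 and 1.02, and no TAM point is filled; Mcoln3 and Lipa are not drawn for TAM.

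In the tumour-associated macrophages 32 of the 33 genes were tested, Mcoln3 being below the filter. Lipa was fitted but is left out of the counts here, since it was listed at 0 in 3 libraries. Of the other 31, 0 were higher or lower in knockout by limma, where 0.0505% of all 9897 genes were higher and 0.0505% lower. At an unadjusted p under 0.05 there were 3, Ppt1, Npc1 and Atp6v0a1, where 16.9% of all genes reached it. Ppt1 had 167, 153, 151 and 128 FPKM in the knockout libraries and 87.8, 94.1, 93.1 and 64.2 in wild type. All 4 knockout values were above all 4 wild-type values, 1.76-fold in the mean (0.82 ± 0.17 (SE, adjusted p = 0.106)). Npc1 had 18.3, 19.5, 23.5 and 20.1 FPKM in knockout and 29.4, 26.0, 23.7 and 37.7 in wild type, all knockout values below (-0.48 ± 0.16 (SE, adjusted p = 0.214)). Of all genes tested, 9.13% had knockout values above every wild-type value and 3.27% below, so 1 of 31 members in each direction is no larger a share. Atp6v0a1 had 13.1, 12.8, 15.6 and 13.6 FPKM in knockout and 19.8, 20.1, 15.4 and 39.7 in wild type (-0.66 ± 0.26 (SE, adjusted p = 0.248)).

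The TAM libraries differed among themselves in other cells' markers, and this touches the same values. Wild-type replicate 8 had a fibroblast marker sum of 252 FPKM and an erythroid sum of 227, against 9.62 to 28.2 and 6.32 to 118 in the other 7. It also held the highest Atp6v0a1, Npc1 and Cd63 and the lowest Ppt1. Without it Ppt1 was 0.69 (adjusted p = 0.0907), Npc1 -0.36, and Atp6v0a1 -0.39, which is a change of over 1.5 times for the last. Neutrophil marker sums were 5577 to 17594 FPKM in replicates 1 to 4 and 878 to 1517 in replicates 5 to 8, each set with 2 libraries of either genotype. The sums of 2 marker lists separated the genotypes, those of endothelial cells and of macrophages. Endothelial markers summed to 20.7 to 50.5 FPKM in knockout and 5.25 to 19.3 in wild type. Pecam1 was the largest part of each of these endothelial sums. Macrophage markers summed to 5146 to 5736 FPKM in knockout and 6069 to 10112 in wild type. Among them Lyz2, the LysM gene itself, had 1091 to 3027 in knockout and 3611 to 5875 in wild type, where it was the largest part of every sum. Only the knockout donors carried LysMcre, so its part in the Lyz2 values and that of Tet2 loss cannot be told apart. Mertk was also lower in every knockout library (32.8 to 43.8 against 50.8 to 81.2). Fcgr1 (146 to 198 against 68.3 to 142) and Aif1 (295 to 372 against 127 to 280) were higher in every one. The other macrophage markers overlapped, among them C1qb, the next largest in wild type (644 to 1240 in knockout and 714 to 1271 in wild type). Melanoma markers summed to at most 0.812 FPKM in any library. The part of these markers, or of the cells they stand for, in the values was not tested, apart from the fits without 1 library, where 0 members passed in each.

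Of the mucolipins, Mcoln1 was the highest in TAM, with 14.4, 14.2, 12.3 and 14.7 FPKM in knockout and 19.3, 14.7, 12.7 and 15.8 in wild type, and the groups overlapped (-0.15 ± 0.14 (SE, adjusted p = 0.596)). Mcoln2 had 1.83, 1.89, 2.51 and 2.12 in knockout and 3.14, 3.58, 0.722 and 1.51 in wild type (0.03 ± 0.30 (SE, adjusted p = 0.965)). Mcoln3, the gene with the BMDM difference, was listed at 0 in 7 libraries and at 0.0442 FPKM in wild-type replicate 1, and was not tested. The MiT/TFE factors did not pass either: Tfe3 had 17.3 to 25.6 FPKM over the 8 libraries, Mitf 3.60 to 5.28 and Tfeb 1.32 to 4.32, with differences of 0.13, 0.00 and 0.02.

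Lipa, the acid lipase, was listed at 0 in 3 TAM libraries. Its values were 0, 26.4, 43.5 and 0 FPKM in knockout replicates 3 to 6 and 42.0, 24.1, 0 and 44.0 in wild-type replicates 1, 2, 7 and 8. A 0 in this table can be a failed estimate: 98 of the 9897 genes tested were at 0 in at least 1 TAM library and at 20 FPKM or more in another, among them Canx and Hnrnpa1, which every cell uses. No fold of Lipa is given for this reason, and it is left out of the counts and medians for TAM. Cd63 ranged from 82.3 to 262 FPKM in knockout and from 128 to 309 in wild type (-0.25 ± 0.44 (SE, adjusted p = 0.792)), and its sign rested on single libraries: the difference was 0.04 without wild-type replicate 8 and -0.55 without knockout replicate 5. The remaining members had log2 differences between -0.47 (Smpd1) and 0.65 (Gla), and without wild-type replicate 8 these were -0.22 and 0.36. The median over the 31 was 0.03 beside 0.09 for all genes.

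**Figure D5:**
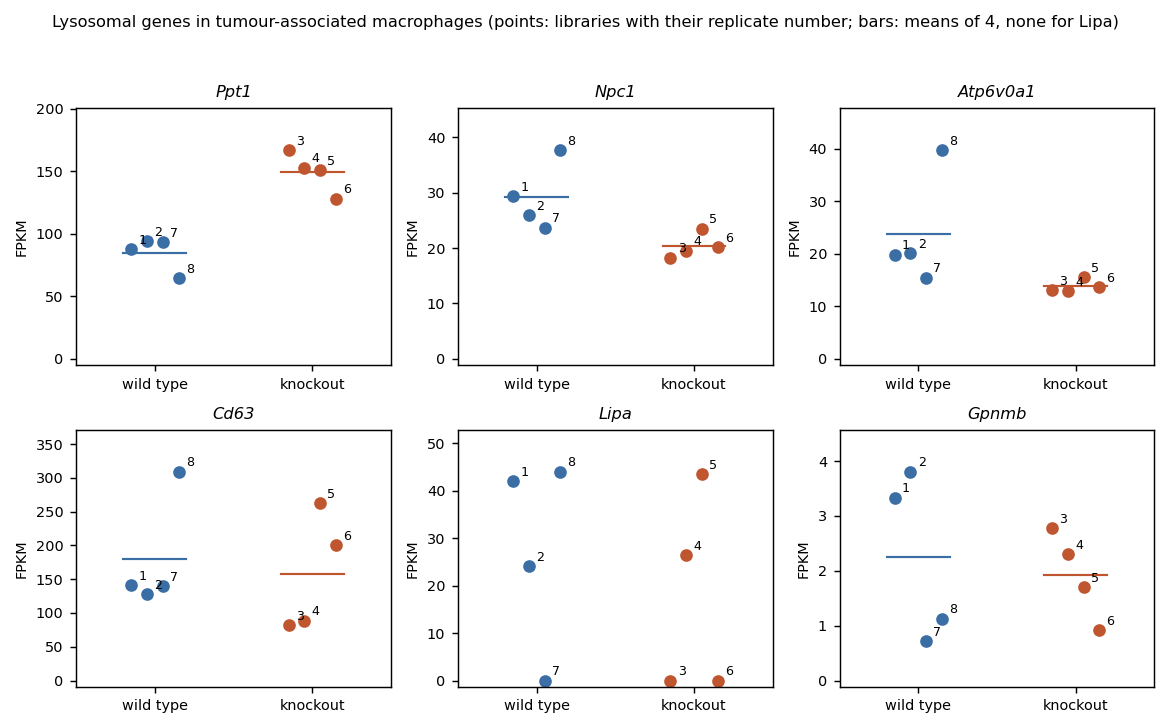
FPKM of 6 genes in each TAM library, labelled with its replicate number, wild type in blue and knockout in orange, with a bar at the mean of 4 (none for Lipa). The Ppt1 and Npc1 values of the genotypes do not overlap, wild-type replicate 8 is the highest for Npc1, Atp6v0a1 and Cd63, and Lipa is listed at 0 in replicates 3, 6 and 7.

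Side by side, the levels of some members were far apart between the tables. Gpnmb stood at 394 to 795 FPKM in BMDM and 0.722 to 3.81 in TAM, and Psap at 3297 to 7267 and 818 to 1560. Ppt1 went the other way, with 29.1 to 44.6 in BMDM and 64.2 to 167 in TAM. The tables differ in cell source, RNA selection and normalization, so the cell type cannot be told apart from these, and no difference was tested.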

How the data were processed

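The authors deposited 1 gene-level FPKM table for BMDM and 1 for TAM. TopHat and Cuffdiff and the build mm9 are named in the submitters' processing notes, without versions. The unit FPKM of the TAM table was taken from its values and format. Here log2(FPKM + 1) was fitted with limma 3.58.1 (trend) in R 4.3.3. All 12 BMDM libraries in 6 groups shared 1 fit and the 8 TAM libraries another. A gene needed 1 FPKM in 2 BMDM or 4 TAM libraries. P-values were adjusted by Benjamini-Hochberg over all genes tested, with a threshold of 0.05, and the scripts were tested on simulated data. Differences are understated for low genes by the pseudocount of 1. Low FPKM values gave no common step, so reads could not be recovered. Replicate numbers did not pair the BMDM samples. Replicates are biological per the labels' design text for BMDM, and TAM libraries have separate numbers only. Alternatives were a pseudocount of 0.1, other filters and scalings, a replicate block, fits of the compared groups, and leaving out each library. Of 33 symbols all matched RefSeq names. All members were named by role, with values per library for those with the largest differences past the threshold. The members, lists and rules were chosen with earlier results of these data known. A gene of the wider lists and the tumour line's alleles are not reported here.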

Additional observations from a re-analysis of the deposited data

Results flagged for a closer look

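Cd63, the lysosomal tetraspanin, had 309 FPKM in wild-type TAM replicate 8, while the nearest of the other 3 wild-type libraries had 141. The gap took 0.925 of the group's whole range, above Dixon's limit for groups of 4. Of 64 groups of 4 values tested this was the only one past it, where chance, at about 1 in 20, would give about 3.2. The same library had the fibroblast marker sum of 252 FPKM, whose part in the value was not tested.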

How the results depend on the processing

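Counts of members called were recomputed under each alternative, and some moved. The shares of all genes called under the alternatives are not given. Median-of-ratios scaling gave 17 members at 10 h against 0 h in wild type and 17 in knockout, 11 from 10 to 24 h in wild type, 3 between genotypes at 24 h and 6 averaged over times. Quantile normalization gave 26 and 21 at 10 h in wild type and knockout, and 2 between genotypes at 0 h, 4 at 24 h and 6 averaged. It reversed Cd63 at 10 h in wild type (-0.052) and Lamp1 (-0.20), Lamp2 (-0.25), Cd63 (-0.22) and Gusb (-0.042) at 24 h. Fits of only the compared libraries gave 5 at 24 h against 0 h and 3 from 10 to 24 h in wild type, 22 at 10 h and 14 from 10 to 24 h in knockout, and 0 between genotypes at 24 h. Requiring 1 FPKM in every library gave 0 between genotypes at each single time and 1 averaged, since Mcoln3 was then not tested and Gla had an adjusted p of 0.0538. Without 1 library each, the counts in wild type were 7 to 11 at 10 h, 12 to 23 at 24 h and 3 to 8 from 10 to 24 h. In knockout they were 6 at 10 h, 11 to 14 at 24 h and 3 to 5 from 10 to 24 h. Between genotypes they were 1 to 6 at 0 h, 1 at 10 h, 1 to 5 at 24 h and 1 to 5 averaged, for the difference in response at 24 h they were 0 to 3, and in TAM they were 0. The lowest count at 24 h in wild type came without 24 h replicate 1 of wild type, and that in knockout without its 0 h replicate 1. From 10 to 24 h the count was 3 without either wild-type 10 h library, and 3 in knockout without its 10 h replicate 1 or 24 h replicate 2. Averaged over times it was 5 without either wild-type 0 h library and 1 without knockout replicate 1 of 0 or 10 h. The causes were not tested. Counts at a pseudocount of 0.1 and with no filter stayed within 1.5 times. Where a group kept 1 library, it was assumed to vary like the others.

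The replicate block changed the counts to 20 at 24 h and 6 from 10 to 24 h in wild type, 15 and 6 in knockout, and 2 averaged over times, with no other change. No paired analysis was possible for TAM because the genotypes share no replicate numbers. The numbers share no stated source: over 15 pairs of groups the deviations of same-numbered libraries correlated at -0.14 to 0.15, 5 of them over 0.1. With 2 libraries a group and no read totals, the depth limits of single values are unknown.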

Other observations

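The order of the 33 genes by median FPKM, a level per transcript length, differed between the tables. In BMDM the medians over 12 libraries ran from 3.42 FPKM for Mcoln3 to 3971 for Psap, followed by 951 for Lamp1 and 485 for Hexa. In TAM the medians over 8 libraries ran from 0 for Mcoln3 to 1470.0 for Psap, followed by 458 for Lamp1 and 353 for Grn, the progranulin gene. Gpnmb was number 4 of the 33 in BMDM (477 FPKM) and number 32 in TAM (2.00). Lamp2 was number 12 in BMDM (183) and number 4 in TAM (262), and Ppt1 number 23 (36.3) and number 13 (111). No difference between the tables was tested.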
